A study of Homo sapiens with 8 samples.

Results

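The baseline transcriptomes of control Molm13 and control THP1 cells were compared. The members are the 2 shCtrl libraries of Molm13 and the 2 shCtrl libraries of THP1, chosen by their labels, which makes 4 of the 8 bulk RNA-seq libraries of the series. All cells were treated with Dox to induce a short hairpin RNA, in these 4 libraries a control hairpin (genotype label WT) and in the other 4 a hairpin against PRMT9, an arginine methyltransferase. The 2 lines were deposited in separate count tables, and the names of the THP1 libraries carry the letters OCI, which the labels do not explain. No library pairs the lines, so line and table cannot be told apart in any difference given here. Nothing in the labels says that the 2 libraries of a line came from separate cultures, and p-values then measure only the spread between these libraries.

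Molm13 and THP1 are established lines from acute myeloid leukemia (AML) with monocytic features. As background, both are known to carry a fusion of KMT2A (MLL) with MLLT3 (AF9), a driver that keeps HOXA genes and their partner MEIS1 active. Molm13 is also known for an internal tandem duplication in the receptor tyrosine kinase FLT3, and THP1 for an activated NRAS. Each group is 1 cell line grown in culture, so the differences describe these lines and not patients, and the part of FLT3 or RAS in them cannot be told apart.

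The deposited counts summed to 20342727 and 19741382 in the Molm13 libraries and to 25585976 and 27356870 in the THP1 libraries. Of 57722 genes joined by identifier, 18145 passed the filter on low counts. Replicates lay close together, with a biological coefficient of variation of 0.0211, so that 15374 genes had a false discovery rate (FDR) below 0.05 in edgeR's quasi-likelihood test and the size of a difference carries more information than its p-value. Differentially expressed genes (DEGs) therefore also needed a fold change above 1.5 and an RPKM (count scaled by exon length and library size) above 1 in at least 1 of the 4 libraries. Log2 fold changes (log2FC) are THP1 minus Molm13 and are given with standard errors, so a positive value is higher in THP1. Where a line had at most 3 counts in both libraries, a fitted fold change depends on the prior count and is replaced by a lower bound or a ratio of counts. Where 1 RPKM value per line is given, it is the mean of 2 libraries, with Molm13 first.

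Of all tested genes, 8144 were DEGs (44.9%), with 3250 higher in THP1 (17.9%) and 4894 higher in Molm13 (27.0%). The 2 libraries of each line did not overlap those of the other line in 16584 genes (91.4%). The surplus in Molm13 lay in pseudogenes. Of 2326 tested processed pseudogenes, intronless copies of other genes, 2034 were higher in Molm13 and 29 in THP1, with a median log2 fold change of -7.42, or -4.67 where genes with at most 3 counts in both libraries of a line are set to their bound. They held 3.97% of the counts in each Molm13 library and 0.0855% and 0.0866% in the THP1 libraries. The pseudogene RPS28P7, for example, had 4824 and 4771 counts in Molm13 and 0 and 0 counts in THP1. In the other direction, all 45 pseudoautosomal genes in the tables had 0 counts in both control Molm13 libraries, while 16 of them had at least 100 counts in both THP1 libraries. The pseudoautosomal SLC25A6, a mitochondrial carrier of adenine nucleotides, had 0 and 0 counts in Molm13 and 11283 and 11206 counts in THP1. The receptor subunits IL3RA and CSF2RA and the adhesion molecule CD99 are pseudoautosomal too and cannot be compared between these tables.

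Genes that share sequence with other genes also differed by large folds, for example the glycolytic enzyme PGAM1 (log2FC 3.47 ± 0.04) and the oxidase subunit NCF1 (log2FC -4.33 ± 0.18). Single genes and runs of neighbors below therefore rest mainly on 11354 tested protein-coding genes of which at most 25% of 32-base words occur in another gene. Of these genes, 4393 were DEGs (38.7%), 2341 higher in THP1 (20.6%) and 2052 higher in Molm13 (18.1%), and 10503 did not overlap between the lines (92.5%). Their median log2 fold change was 0.10, against -0.03 for all tested genes. With the share of DEGs this high, the count of any gene list is read beside a background. Unless stated otherwise, it is the 20.6% and 18.1% of little-shared coding genes higher in THP1 and in Molm13.

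**Figure D1:**
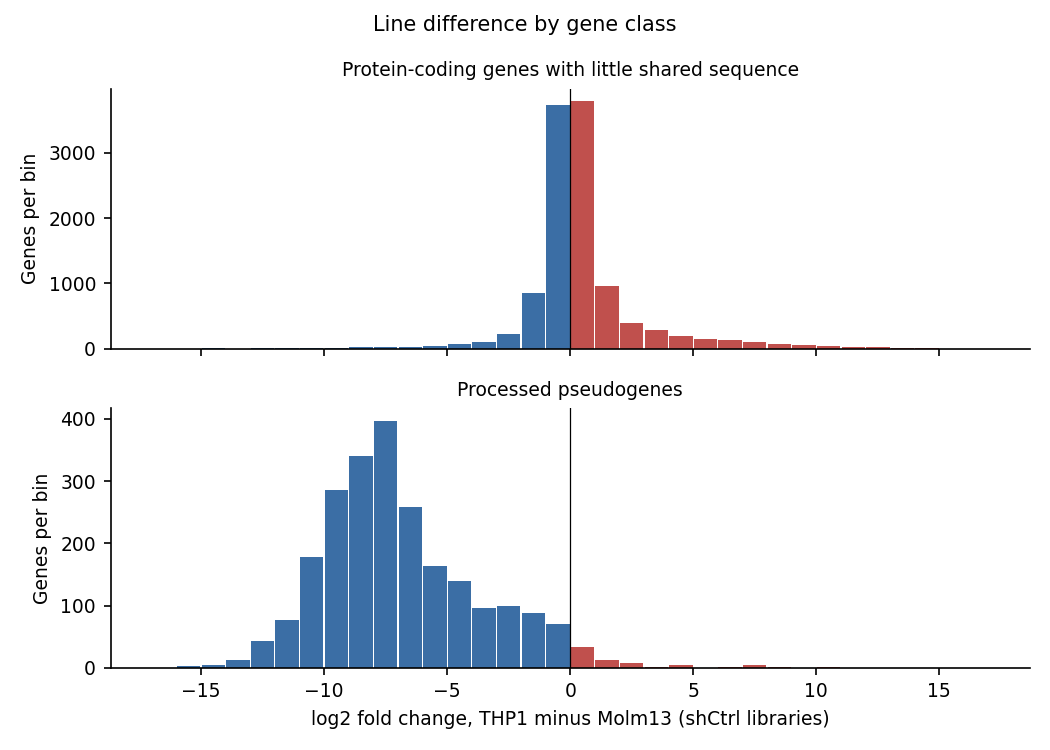
Number of genes per bin of 1 unit of log2 fold change (THP1 minus Molm13, shCtrl libraries), for little-shared protein-coding genes (upper panel) and processed pseudogenes (lower panel). The coding genes center near 0 (median 0.10), and the processed pseudogenes lie on the Molm13 side (median -7.42).

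Both lines held transcripts of the monocytic lineage, the lineage that their label of AML cells covers. The surface marker CD33 was at 10.1 and 9.97 in Molm13 and 11.8 and 11.1 RPKM in THP1, without a DEG call (log2FC 0.19 ± 0.05). The granule enzyme lysozyme (LYZ) was at 360.2 against 1077 RPKM, although it shares sequence with other genes. The lineage transcription factor SPI1 was at 50.1 and 50.2 in Molm13 and 119 and 115 RPKM in THP1 (log2FC 1.22 ± 0.03). CD14, the lipopolysaccharide co-receptor, was nearly absent from both, with 4 and 6 counts in Molm13 and 24 and 24 counts in THP1. The MLL-fusion target HOXA9 was at 20.8 and 20.5 in Molm13 and 17.7 and 17.9 RPKM in THP1 and was not a DEG (log2FC -0.21 ± 0.05). Genes HOXB2, HOXB5, HOXB8 and HOXB9 had at most 4 counts in any control library, and of the 5 tested HOXB genes only HOXB4 was a DEG (0.00656 against 1.69 RPKM, 252-fold higher in THP1, 95% counting interval 44.96 to 9992). All 5 lay towards THP1 at low levels, with fitted log2FC from 4.74 to 7.90. The 10 HOXB genes summed to 0.052 and 0.161 RPKM in Molm13 and 3.80 and 3.81 RPKM in THP1. In the shPRMT9 libraries, 3 of 5 tested were DEGs higher in THP1.

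Markers of other cell types were low, with some exceptions in Molm13. Of 15 B-cell genes, MS4A1, IGHM, BLK and CR2 had 0 counts in all 4 libraries, but PAX5, the B-lineage transcription factor, was at 4.57 and 4.53 in Molm13 and 0.269 and 0.336 RPKM in THP1. BANK1, a B-cell adaptor, was at 10.1 against 2.88 RPKM, and 4 of 6 tested B-cell genes were higher in Molm13 and 0 in THP1. The T and NK list had 6 tested genes, with 2 higher in Molm13, among them the granule protein NKG7 (16.2 against 5.66 RPKM), which turned to a log2FC of 0.13 under an offset by exon length, and with 1 higher in Molm13 without Molm13 replicate 2. No erythroid or megakaryocyte gene passed the filter on low counts. In the epithelial and stromal list, KRT18 (156-fold higher in Molm13, 95% counting interval 60.7 to 576) and ACTA2 (log2FC -6.63 ± 0.21), both with copies elsewhere in the genome, were higher in Molm13, and PECAM1, which myeloid cells also express, was higher in THP1.

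**Figure D2:**
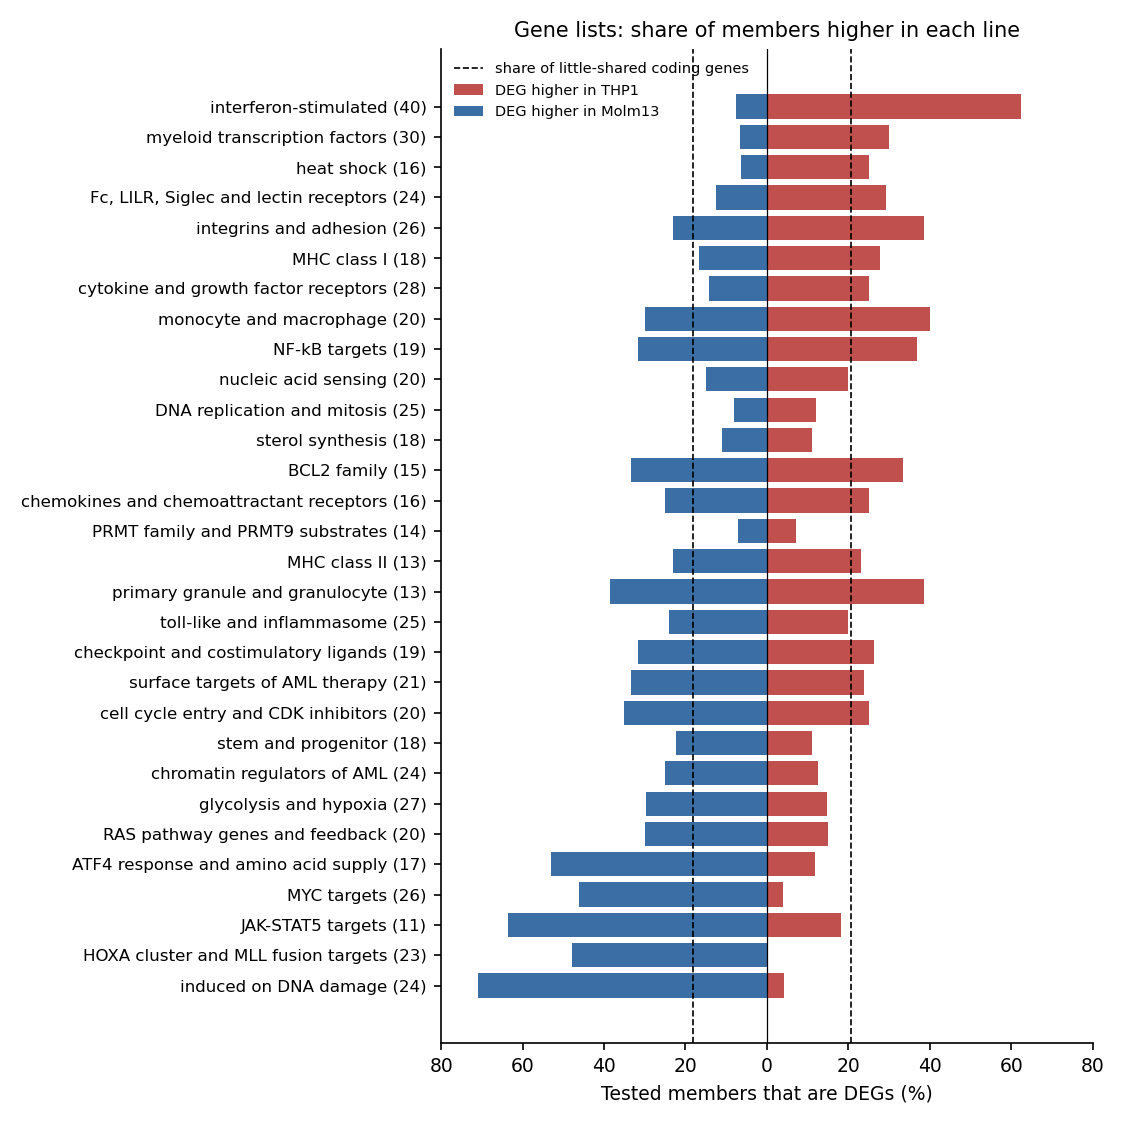
Percentage of the tested members of each list (number in parentheses, lists with at least 10 tested members) that were DEGs higher in THP1 (bars to the right) or higher in Molm13 (bars to the left), with dashed lines at the shares of little-shared coding genes (20.6% and 18.1%). The bars include list members that share more sequence, which the dashed lines leave out. Interferon-stimulated genes reach farthest to the right and genes induced on DNA damage farthest to the left.

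Interferon-stimulated genes (ISGs) are switched on when interferon receptors activate a complex that includes STAT2 and IRF9, which binds the interferon-stimulated response element in promoters. They encode antiviral effectors such as the oligoadenylate synthetases, and even without infection cells keep some of them at a basal level. Of 40 tested ISGs, 25 were higher in THP1, 3 were higher in Molm13 and 12 were not DEGs, with a median log2 fold change of 1.48. These 25 are 62.5%, against 17.9% of all tested genes and 20.6% of little-shared coding genes higher in THP1. As part of the ISGs was chosen with results of these libraries known, the count is a description.

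The promoters of 5 ISGs are shown because they carry the letters of the response element within 250 bases before to 50 bases after a RefSeq start (GRCh38.p14), for 4 ISGs far higher in THP1 and for RSAD2, higher in Molm13. Capitals mark GAAANNGAAA or its reverse complement TTTCNNTTTC, and each sequence reads along the gene's strand.
IFI27 (chr14:94110608-94110667, plus strand): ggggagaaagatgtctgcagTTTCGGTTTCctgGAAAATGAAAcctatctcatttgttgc
IFI44L (chr1:78620264-78620389, plus strand): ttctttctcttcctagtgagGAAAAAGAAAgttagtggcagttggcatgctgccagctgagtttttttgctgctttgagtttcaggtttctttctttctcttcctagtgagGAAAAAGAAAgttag
IFI6 (chr1:27672271-27672368, minus strand): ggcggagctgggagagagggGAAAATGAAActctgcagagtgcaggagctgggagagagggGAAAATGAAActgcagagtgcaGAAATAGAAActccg
OAS3 (chr12:112938311-112938476, plus strand): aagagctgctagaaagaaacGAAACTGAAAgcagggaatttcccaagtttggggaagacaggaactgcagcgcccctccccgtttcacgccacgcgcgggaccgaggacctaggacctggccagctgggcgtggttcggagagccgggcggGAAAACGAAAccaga
RSAD2 (chr2:6877612-6877671, plus strand): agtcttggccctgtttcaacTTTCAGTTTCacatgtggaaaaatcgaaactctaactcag
These letters on either strand occurred in the windows of 1195 of 27305 genes (4.38%) and of 22 of 30 ISGs with a window (73.3%). Among ISGs higher in THP1 they were in 13 of 18 (72.2%), and among ISGs that were not DEGs in 8 of 11 (72.7%), so the letters did not separate ISGs that differed between the lines from those that did not. A match is a description and not a measured binding site.

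IFI27, a small mitochondrial and nuclear membrane protein, had 0 and 0.0492 in Molm13 and 1.75 and 1.99 RPKM in THP1 and the ISG list's greatest difference (log2FC 6.20 ± 0.34). IFI44L was at 0.0241 and 0.0299 in Molm13 and 1.39 and 1.41 RPKM in THP1 (log2FC 5.67 ± 0.24). IFI6, which blocks apoptosis, was at 1.65 and 1.83 in Molm13 and 39.4 and 40.4 RPKM in THP1 (log2FC 4.52 ± 0.13). IFI27 and IFI44L were near absent in Molm13 and low in THP1, IFI6 was low in Molm13, and none of the 3 overlapped between the lines. The synthetases OAS3 (0.394 against 8.12 RPKM, log2FC 4.36 ± 0.09), OAS2 (1.24 against 15.6 RPKM, log2FC 3.65 ± 0.07) and OAS1 (1.41 against 4.06 RPKM, log2FC 1.53 ± 0.10), which make the activator of RNase L, were all higher in THP1. So were the ubiquitin-like modifier ISG15, at 3.77 and 4.12 in Molm13 and 19.3 and 16.7 RPKM in THP1, and the translation inhibitors IFIT1 (2.14 ± 0.15), IFIT2 (2.27 ± 0.12) and IFIT3 (2.16 ± 0.12).

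Among the factors that drive these genes, IRF7 was at 3.39 and 3.92 in Molm13 and 9.82 and 9.86 RPKM in THP1 (log2FC 1.43 ± 0.09). IRF9 was also a DEG higher in THP1 in the control libraries, but not in the shPRMT9 libraries (log2FC 0.56). Its partner STAT2 at 9.17 against 12.6 RPKM was not a DEG (log2FC 0.46 ± 0.05). The receptor chains IFNAR1 (log2FC 0.32 ± 0.04) and IFNAR2 (log2FC -0.13 ± 0.05) were not DEGs either. BST2, which tethers budding virus, was abundant in both lines at 43.7 and 44.1 in Molm13 and 77.6 and 71.7 RPKM in THP1 (log2FC 0.77 ± 0.05). Several ISGs differed little, among them DTX3L at 12.6 against 13.1 RPKM and HERC5 at 6.27 against 6.53 RPKM, a ligase that attaches ISG15.

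The 3 ISGs higher in Molm13 were TRIM22, LY6E and RSAD2. TRIM22, an antiviral ubiquitin ligase, was at 23.04 and 22.8 in Molm13 and 6.05 and 6.75 RPKM in THP1 (log2FC -1.84 ± 0.04). LY6E, a membrane protein that limits viral entry, was at 29.7 and 29.2 in Molm13 and 12.4 and 11.4 RPKM in THP1 (log2FC -1.31 ± 0.05). RSAD2 (viperin), an enzyme that makes a chain-terminating nucleotide, was at 1.59 and 1.66 in Molm13 and 1.09 and 0.844 RPKM in THP1 (log2FC -0.75 ± 0.14), but without THP1 replicate 2 it was no longer a DEG (-0.56). TRIM22 and LY6E were thus among the more abundant ISGs of Molm13, whereas RSAD2 was low in both lines.

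**Figure D3:**
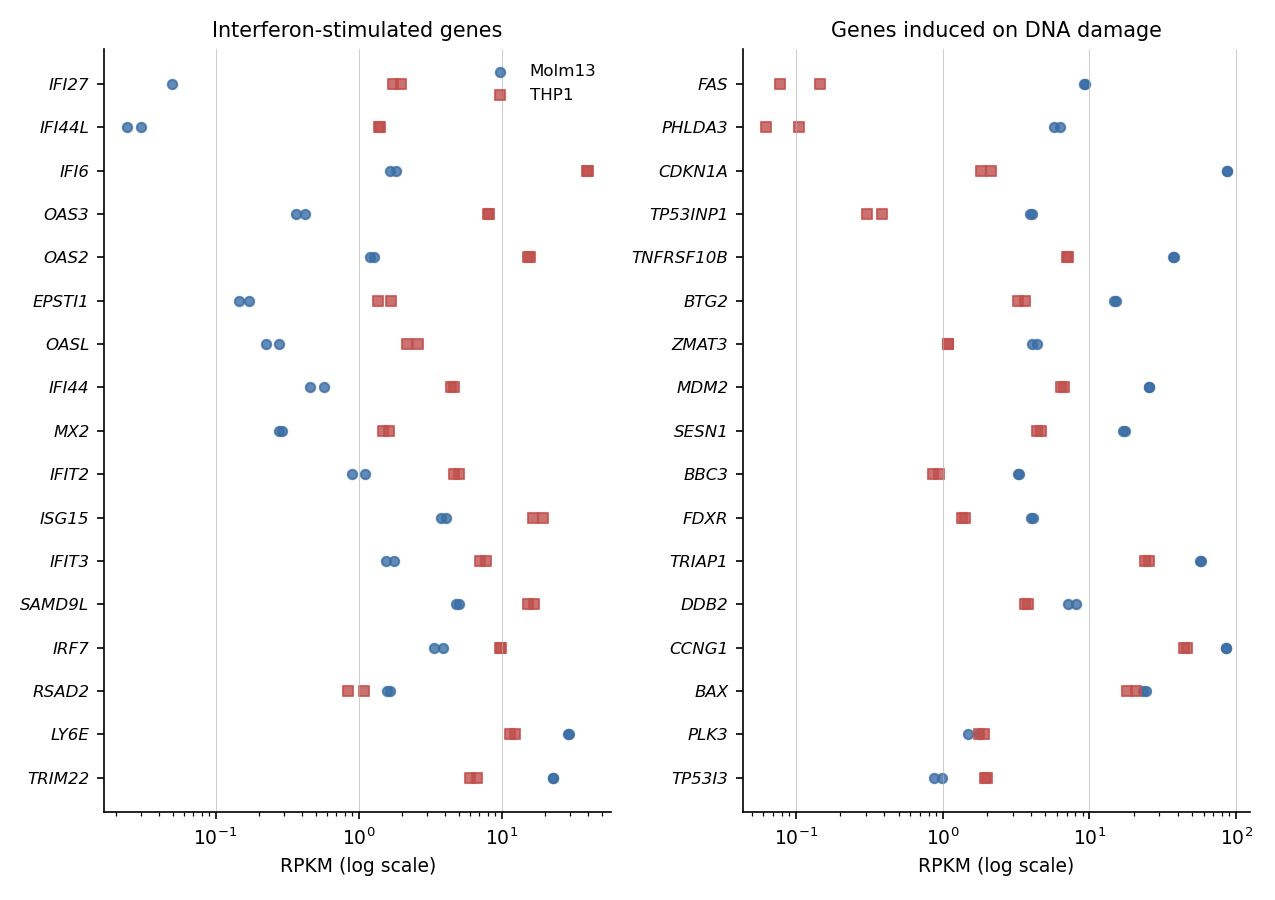
RPKM on a log axis of 17 ISGs (left) and of 17 genes induced on DNA damage (right), with circles for the 2 Molm13 and squares for the 2 THP1 control libraries. IFI27 is not drawn for 1 Molm13 library, in which it was at 0; RSAD2, LY6E and TRIM22 among the ISGs and all but PLK3 and TP53I3 on the right sit higher in Molm13.

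Sensors of nucleic acids detect viral or misplaced DNA and RNA and start the interferon response. The DNA sensor cGAS (listed as MB21D1) was at 18.1 and 16.5 in Molm13 and 16.7 and 17.3 RPKM in THP1 and was not a DEG (log2FC -0.02 ± 0.04). Its adaptor STING (TMEM173) was at 45.6 and 44.5 in Molm13 and 36.7 and 35.1 RPKM in THP1 (log2FC -0.33 ± 0.03), and the kinase TBK1 at 16.7 against 10.7 RPKM (log2FC -0.65 ± 0.05). The 2 lines overlapped in cGAS but not in STING. The RNA sensors split, with IFIH1 (MDA5) higher in THP1 at 2.02 and 2.01 in Molm13 and 6.69 and 7.07 RPKM in THP1 (log2FC 1.77 ± 0.09) and DDX58 (RIG-I) higher in Molm13 at 8.89 and 9.25 in Molm13 and 2.76 and 2.91 RPKM in THP1 (log2FC -1.67 ± 0.07). Their regulator DHX58 was at 0.248 against 1.96 RPKM (log2FC 2.98 ± 0.21). The nuclear DNA sensor IFI16 was higher in Molm13 at 8.91 against 3.45 RPKM (log2FC -1.37 ± 0.07). In the whole list, THP1 was higher for 4 of 20 tested genes (20%) and Molm13 for 3 (15%), close to the 20.6% and 18.1% of little-shared coding genes.

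On DNA damage, cells switch on genes that stop the cell cycle, start apoptosis or repair DNA. Of 24 tested genes in a hand-written list of transcripts induced in this way, 17 were higher in Molm13 (70.8%) and 1 was higher in THP1, with a median log2 fold change of -1.41. Of all tested genes 27.0% were higher in Molm13, many of them pseudogenes, and of little-shared coding genes 18.1%. CDKN1A (p21), an inhibitor of cyclin-dependent kinases, was at 86.7 and 86.9 in Molm13 and 2.12 and 1.82 RPKM in THP1 (log2FC -5.47 ± 0.05). The death receptor FAS was at 9.12 and 9.31 in Molm13 and 0.146 and 0.0777 RPKM in THP1 (log2FC -6.36 ± 0.16). CDKN1A and FAS were expressed in Molm13 and close to absent in THP1, as was PHLDA3, an inhibitor of AKT, at 6.02 against 0.0835 RPKM (log2FC -6.13 ± 0.21).

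MDM2, a ubiquitin ligase, was at 25.5 and 25.6 in Molm13 and 6.74 and 6.38 RPKM in THP1 (log2FC -1.96 ± 0.03). The apoptosis gene BBC3 (PUMA) was at 3.28 against 0.904 RPKM (log2FC -1.86 ± 0.15), the death receptor TNFRSF10B at 37.4 against 7.09 RPKM (log2FC -2.40 ± 0.04) and the autophagy regulator TP53INP1 at 3.97 against 0.344 RPKM (log2FC -3.52 ± 0.13). BAX, a pore-forming killer protein, did not pass the fold limit at 23.7 against 19.4 RPKM (log2FC -0.29 ± 0.05). The one gene of the list higher in THP1 was TP53I3, a quinone reductase, at 0.934 against 1.97 RPKM (log2FC 1.08 ± 0.20).

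Genes of cell cycle entry were divided, with 5 of 20 higher in THP1 and 7 in Molm13 (25% and 35%, background 20.6% and 18.1%). Cyclin D2 (CCND2) was at 20.5 and 26.9 in Molm13 and 0.0109 and 0.0305 RPKM in THP1 (log2FC -10.08 ± 0.11), so that THP1 held almost none, while CCND3 was at 33.9 against 26.9 RPKM and its partner CDK6 at 60.5 against 49.9 RPKM, neither a DEG. The CDK inhibitor CDKN1B (p27) was higher in Molm13 at 32.04 against 12.1 RPKM (log2FC -1.41 ± 0.05). The transcription factor E2F1 was higher in THP1 at 14.1 against 36.3 RPKM (log2FC 1.37 ± 0.05). MTAP, an enzyme of methionine salvage whose gene neighbors CDKN2A, was at 2.96 against 0.103 RPKM (log2FC -4.84 ± 0.11).

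The BCL2 family sets the threshold for apoptosis. Of its 15 tested genes 5 were DEGs higher in THP1 and 5 higher in Molm13 (33.3% each, background 20.6% and 18.1%). The antiapoptotic BCL2, the target of venetoclax, was at 9.902 and 9.997 in Molm13 and 15.9 and 16.1 RPKM in THP1 (log2FC 0.69 ± 0.03), and MCL1 at 87.3 against 70.6 RPKM was not a DEG (log2FC -0.31 ± 0.03). The effector BAK1 (5.9996 against 23.4 RPKM, log2FC 1.96 ± 0.07) and the sensitizer BAD (2.23 against 10.1 RPKM, log2FC 2.17 ± 0.12) were higher in THP1. The antiapoptotic BCL2A1 was higher in Molm13 at 0.894 against 0.136 RPKM (log2FC -2.65 ± 0.50, not a DEG without Molm13 replicate 1 at -2.33), as were BIK (-1.96 ± 0.08) and BMF (-1.86 ± 0.11), both killer proteins with a single BH3 domain. Under an offset by exon length neither BIK (-0.36) nor BCL2 (0.49) was a DEG.

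Monocyte and macrophage genes differed in both directions, 8 of 20 tested genes higher in THP1 and 6 in Molm13 (40% and 30%, background 20.6% and 18.1%). In bulk RNA, fewer cells in a given state and less RNA per cell cannot be told apart. Versican (VCAN), a matrix proteoglycan that monocytes secrete, was at 0.0266 and 0.0344 in Molm13 and 2.899 and 2.93 RPKM in THP1 (log2FC 6.56 ± 0.15). MNDA, a nuclear protein of myeloid cells, was at 5.82 and 6.47 in Molm13 and 51.3 and 51.3 RPKM in THP1 (log2FC 3.06 ± 0.06). CSF1R, the receptor that directs macrophage fate, was at 2.94 and 2.77 in Molm13 and 13.3 and 13.2 RPKM in THP1 (log2FC 2.22 ± 0.06). These 3 genes, with MS4A6A at 9.25 against 74.96 RPKM, were higher in THP1 without overlap. In contrast CD4, which human monocytes carry, was at 26.3 against 7.21 RPKM (log2FC -1.87 ± 0.05), the costimulator CD86 at 1.26 against 0.336 RPKM (log2FC -1.91 ± 0.23) and the alarmin S100A8 at 30.3 against 7.82 RPKM (log2FC -1.95 ± 0.09). S100A8 was no longer a DEG under an offset by exon length (-0.474) or in the shPRMT9 libraries (-0.467).

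Primary granules of immature granulocytes hold proteases and antimicrobial proteins. Of 13 tested granule genes 5 stood higher in THP1 and 5 in Molm13 (38.5% each, background 20.6% and 18.1%). Proteinase 3 (PRTN3) was at 177 and 178 in Molm13 and 1372 and 1276 RPKM in THP1 (log2FC 2.90 ± 0.03), and neutrophil elastase (ELANE) at 455 against 753 RPKM (log2FC 0.73 ± 0.03). SERPINB10, a protease inhibitor, was at 0.0372 against 6.91 RPKM (186-fold higher in THP1, 95% counting interval 72.3 to 683). On the Molm13 side, cathepsin G (CTSG) was at 534 and 528 in Molm13 and 135 and 134 RPKM in THP1 (log2FC -1.98 ± 0.03), myeloperoxidase (MPO) at 17.3 and 17.5 in Molm13 and 2.34 and 1.94 RPKM in THP1 (log2FC -3.02 ± 0.08), and the bactericidal protein BPI at 1.84 against 0.00672 RPKM (274-fold higher in Molm13, 95% counting interval 75.4 to 2272). The proteases of these granules thus differed in both directions, PRTN3 and ELANE towards THP1 and CTSG towards Molm13.

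Of 30 tested myeloid transcription factors, 9 were higher in THP1 and 2 in Molm13 (30% and 6.67%, background 20.6% and 18.1%). CEBPE, a granulocyte factor, was at 0.113 against 1.33 RPKM (log2FC 3.52 ± 0.43), and the stem cell factor GATA2 at 1.103 against 6.01 RPKM (log2FC 2.45 ± 0.10). MYC (162 against 83.02 RPKM, log2FC -0.96 ± 0.03) and the early response gene EGR1 (5.21 against 1.39 RPKM, log2FC -1.90 ± 0.12) were the DEGs higher in Molm13. IRF8 (130.0 against 156 RPKM), CEBPA (144 against 134 RPKM), MYB (109.7 against 143 RPKM) and RUNX1 (20.1 against 18.3 RPKM) did not pass the fold limit.

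FLT3 signals to STAT5, RAS and PI3K and drives growth of progenitors. FLT3 RNA was at 84.7 and 84.2 in Molm13 and 13.7 and 13.4 RPKM in THP1 (log2FC -2.64 ± 0.03), high in both Molm13 libraries and lower but present in both THP1 libraries. Of 11 tested JAK-STAT5 targets, 7 were higher in Molm13 and 2 in THP1, with a median log2 fold change of -0.84. These are 63.6% and 18.2%, against 18.1% and 20.6% of little-shared coding genes. The feedback inhibitor SOCS2 was at 37.4 and 35.9 in Molm13 and 0.509 and 0.344 RPKM in THP1 (log2FC -6.43 ± 0.06), the kinase PIM1 at 8.43 against 2.86 RPKM (log2FC -1.56 ± 0.09), the inhibitor CISH at 5.83 against 3.26 RPKM (log2FC -0.84 ± 0.07) and STAT5A itself at 3.804 against 0.993 RPKM (log2FC -1.94 ± 0.10). PIM3 (7.61 against 17.6 RPKM, log2FC 1.21 ± 0.07) and the antiapoptotic BCL2L1 (4.95 against 7.69 RPKM, log2FC 0.64 ± 0.08) were higher in THP1, the last no longer a DEG without Molm13 replicate 1 (0.58).

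In the RAS pathway, THP1 was higher for 3 of 20 tested genes and Molm13 for 6 (15% and 30%, background 20.6% and 18.1%). NRAS was at 41.3 and 43.6 in Molm13 and 53.7 and 57.3 RPKM in THP1 and was not a DEG (log2FC 0.39 ± 0.03). Feedback inhibitors of the pathway were higher in Molm13, SPRED1 at 4.38 and 4.24 in Molm13 and 0.251 and 0.194 RPKM in THP1 (log2FC -4.28 ± 0.12), SPRY2 at 15.1 against 5.22 RPKM (log2FC -1.53 ± 0.07) and SPRY4 at 1.85 against 0.5702 RPKM (log2FC -1.70 ± 0.14). HRAS (8.01 against 16.5 RPKM, log2FC 1.04 ± 0.08), the ubiquitin ligase CBL (9.43 against 18.4 RPKM, log2FC 0.96 ± 0.03) and NF1 (3.57 against 6.48 RPKM, log2FC 0.86 ± 0.04), which switches RAS off, were the 3 higher in THP1, NF1 not under an offset by exon length (0.54).

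Of 28 tested cytokine and growth factor receptors, 7 were DEGs higher in THP1 and 4 were higher in Molm13 (25% and 14.3%, background 20.6% and 18.1%). The 7 include the pseudoautosomal IL3RA and CSF2RA. The shared signaling chain CSF2RB was at 2.02 against 5.68 RPKM (log2FC 1.49 ± 0.09) and the interleukin 6 signal transducer IL6ST at 3.41 against 7.77 RPKM (log2FC 1.19 ± 0.05). IFNGR2, a chain of the interferon gamma receptor, was higher in Molm13 at 22.5 against 10.8 RPKM (log2FC -1.06 ± 0.05), and IL7R at 2.29 against 1.49 RPKM (log2FC -0.62 ± 0.11). IL6R stood alike at 58.4 against 59.6 RPKM (log2FC 0.03 ± 0.03). Stem and progenitor genes gave 2 of 18 higher in THP1 and 4 in Molm13 (11.1% and 22.2%, background 20.6% and 18.1%), with a median of 1.25, towards THP1. They included CD38 (5.72 against 13.3 RPKM, log2FC 1.22 ± 0.05), the adaptor BEX3 (0 counts in Molm13 and 0 against 27.5 RPKM) and the lysosomal membrane protein LAPTM4B (78.02 against 38.2 RPKM, log2FC -1.03 ± 0.03), with CD34 at 0.0355 against 0.0864 RPKM.

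The MLL fusion keeps the HOXA cluster active together with MEIS1, a DNA-binding partner of HOX proteins. Of 23 tested HOXA genes and MLL-fusion targets, 11 were higher in Molm13 (47.8%) and 0 in THP1, against 18.1% and 20.6% of little-shared coding genes. Of the 19 little-shared members, 8 were higher in Molm13 and 0 in THP1. The list median was -1.07, or -0.49 over the little-shared genes in a fit of their own. MEIS1 was at 6.54 and 6.92 in Molm13 and 0.0251 and 0.0133 RPKM in THP1 (log2FC -8.43 ± 0.14), expressed in Molm13 and nearly absent in THP1. HOXA10 was at 21.9 and 23.5 in Molm13 and 11.7 and 12.4 RPKM in THP1 (log2FC -0.92 ± 0.05), HOXA5 at 6.24 against 1.58 RPKM (log2FC -1.98 ± 0.15), HOXA13 at 25.2 against 5.996 RPKM (log2FC -2.07 ± 0.05) and HOXA3 at 1.86 against 0.0926 RPKM (log2FC -4.32 ± 0.24). The other HOX partner PBX3 was at 22.8 against 32.3 RPKM and did not pass the fold limit (log2FC 0.50 ± 0.04), and MEF2C, a myeloid factor, stood at 28.6 against 24.6 RPKM (log2FC -0.22 ± 0.03). BMI1, a Polycomb component, was higher in Molm13 at 71.3 against 19.2 RPKM (log2FC -1.90 ± 0.03), and the endosomal protein LAMP5 at 98.6 against 40.99 RPKM (log2FC -1.27 ± 0.04).

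Of 24 chromatin regulators of AML, 3 were higher in THP1 (12.5%) and 6 in Molm13 (25%), against 20.6% and 18.1% of little-shared coding genes. KDM6A, a histone demethylase of lysine 27 on histone H3, stood apart, with 736 and 687 counts in Molm13 and 1 and 3 counts in THP1 (472-fold higher in Molm13, 95% counting interval 184 to 1736). NPM1, a nucleolar chaperone, was at 142 and 143 in Molm13 and 243 and 242 RPKM in THP1 (log2FC 0.77 ± 0.03), and TET3 at 9.55 against 14.7 RPKM (log2FC 0.62 ± 0.03). KMT2A was at 6.005 against 3.56 RPKM (log2FC -0.75 ± 0.04) and MLLT3 at 3.09 against 1.41 RPKM (log2FC -1.13 ± 0.09), and reads of a fusion transcript would enter both counts. The DNA methyltransferase DNMT3B was higher in Molm13 (6.93 against 2.99 RPKM, log2FC -1.21 ± 0.08). DOT1L (15.7 against 17.4 RPKM), MEN1 (10.1 against 15.3 RPKM) and KDM1A (30.5 against 32.3 RPKM) are targets of compounds used against MLL-fusion leukemia, and of these only MEN1 passed the fold limit (log2FC 0.59 ± 0.05). Without Molm13 replicate 1 neither MEN1 (0.58) nor TET3 (0.56) was a DEG, and MEN1 was not a DEG without Molm13 replicate 2 (0.57).

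Class II molecules of the major histocompatibility complex present antigen to helper T cells. Of 13 tested genes THP1 was higher for 3 and Molm13 for 3 (23.1% each, background 20.6% and 18.1%). HLA-DRB1 was at 1.28 against 19.9 RPKM (log2FC 3.95 ± 0.13) but its partner HLA-DRA was at 4.98 against 0.991 RPKM (log2FC -2.33 ± 0.20), so the beta chain and the alpha chain differed in opposite directions. HLA genes are related in sequence and vary between people, so the split of reads among them is uncertain. The class II activator CIITA was at 0.249 against 0.2096 RPKM and the invariant chain CD74 at 27.9 against 35.2 RPKM, neither a DEG. In class I, B2M stood alike at 106 against 105 RPKM (log2FC -0.02 ± 0.03), the peptide transporter TAP1 at 7.54 against 17.02 RPKM (log2FC 1.17 ± 0.05) and TAPBP at 26.7 against 66.9 RPKM (log2FC 1.32 ± 0.03) were higher in THP1, and the trimming enzyme ERAP2 was higher in Molm13 at 6.14 against 0.791 RPKM (log2FC -2.95 ± 0.08). HLA-C was at 62.8 against 25.1 RPKM (log2FC -1.33 ± 0.04). The class I list held 5 genes higher in THP1 and 3 in Molm13 of 18 tested (27.8% and 16.7%, background 20.6% and 18.1%).

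Among surface targets of AML therapy, 5 of 21 were higher in THP1 and 7 in Molm13 (23.8% and 33.3%, background 20.6% and 18.1%). The 5 include IL3RA, which cannot be compared. CD33, given above, was not a DEG, whereas PRAME, a cancer-testis antigen, was at 0.561 and 0.4596 in Molm13 and 24.8 and 25.4 RPKM in THP1 (log2FC 5.61 ± 0.09) and the lectin CLEC12A at 0.789 against 4.14 RPKM (log2FC 2.39 ± 0.15). CD44, a hyaluronan receptor, was at 22.8 against 6.51 RPKM (log2FC -1.81 ± 0.04), and CD47, which inhibits phagocytosis, at 17.9 and 17.7 in Molm13 and 9.79 and 10.3 RPKM in THP1 (log2FC -0.83 ± 0.04). The macrophage inhibitor LILRB4 was higher in THP1 at 13.8 against 27.6 RPKM (log2FC 0.996 ± 0.04). Of 4 tested cancer-testis antigens 3 were higher in THP1, with MAGEB2 at 0 in Molm13 and TSPYL5 at 0.0168 against 5.34 RPKM.

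Of 19 tested checkpoint and costimulatory ligands, 5 were higher in THP1 and 6 in Molm13 (26.3% and 31.6%, background 20.6% and 18.1%). PD-L1 (CD274) was low in both lines at 0.09597 and 0.0745 in Molm13 and 0.114 and 0.151 RPKM in THP1 (log2FC 0.63 ± 0.48). CD276 (B7-H3) was at 0.169 and 0.129 in Molm13 and 5.36 and 5.15 RPKM in THP1 (log2FC 5.13 ± 0.15) and galectin 9 (LGALS9) at 8.66 against 26.6 RPKM (log2FC 1.62 ± 0.04). The B-cell factor TNFSF13B (BAFF) was higher in Molm13 at 20.7 against 3.56 RPKM (log2FC -2.53 ± 0.07), as were TNFSF9 (13.5 against 3.36 RPKM, log2FC -2.005 ± 0.10) and SIRPA (39.4 against 17.2 RPKM, log2FC -1.19 ± 0.04), the receptor of CD47.

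Toll-like receptors and inflammasome genes gave 5 of 25 higher in THP1 (20%) and 6 in Molm13 (24%), near the 20.6% and 18.1% of little-shared coding genes. TLR4, the lipopolysaccharide receptor, was at 0.675 and 0.922 in Molm13 and 16.4 and 17.1 RPKM in THP1 (log2FC 4.39 ± 0.08), TLR2 at 4.51 against 25.3 RPKM (log2FC 2.49 ± 0.05) and the pore-forming GSDMD at 2.46 against 12.3 RPKM (log2FC 2.32 ± 0.07). The TLR4 cofactor LY96 (MD-2), however, was higher in Molm13 at 1.69 against 0.8095 RPKM (log2FC -1.06 ± 0.39). LY96 was not a DEG with DESeq2 (-1.07), without Molm13 replicate 1 (-0.84) or without THP1 replicate 2 (-0.99), and was at 1.52 under an offset by exon length. Also higher in Molm13 were the adaptor MYD88 (15.96 against 9.69 RPKM, log2FC -0.72 ± 0.05), the inflammasome sensor NLRP3 (36.4 against 23.01 RPKM, log2FC -0.66 ± 0.03) and CD180 (2.51 against 0.569 RPKM, log2FC -2.14 ± 0.14). The receptor TLR4 and the adaptor MYD88 were thus not higher in the same line in the control libraries. MYD88 was at 0.000116 in the shPRMT9 libraries, and LY96 depended on the setting.

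Targets of the transcription factor NF-kB were also mixed, 7 higher in THP1 and 6 in Molm13 of 19 (36.8% and 31.6%, background 20.6% and 18.1%). The cytokine TNF was at 19.4 and 20.1 in Molm13 and 2.5002 and 2.94 RPKM in THP1 (log2FC -2.86 ± 0.10) and the adhesion molecule ICAM1 at 11.8 against 0.812 RPKM (log2FC -3.87 ± 0.10), with CD83 at 6.59 against 1.32 RPKM (log2FC -2.32 ± 0.13), all higher in Molm13. RELB (0.685 against 2.47 RPKM, log2FC 1.85 ± 0.18), NFKBIE (5.38 against 14.01 RPKM, log2FC 1.38 ± 0.08) and the chemokine CXCL8 (0.265 against 1.19 RPKM, log2FC 2.16 ± 0.31) were higher in THP1. In the list of chemokines and their receptors, 4 of 16 were higher in each line (25%, background 20.6% and 18.1%). CXCR4, which holds cells in the bone marrow, was at 84.02 and 85.97 in Molm13 and 32.7 and 30.9 RPKM in THP1 (log2FC -1.42 ± 0.04), and CX3CR1, a monocyte receptor, at 11.9 against 1.499 RPKM (log2FC -2.98 ± 0.09). CXCR2 (0.356 against 7.87 RPKM, log2FC 4.46 ± 0.15) and CCR2 (13.5 against 44.8 RPKM, log2FC 1.73 ± 0.04) were higher in THP1.

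Fc, LILR, Siglec and lectin receptors gave 7 of 24 higher in THP1 and 3 in Molm13 (29.2% and 12.5%, background 20.6% and 18.1%). FCER1G, the signaling chain shared by Fc receptors, was at 1.33 and 0.8998 in Molm13 and 34.5 and 34.5 RPKM in THP1 (log2FC 4.94 ± 0.14), the lipid receptor TREM2 at 1.07 against 19.99 RPKM (log2FC 4.21 ± 0.15) and SIGLEC1, also induced by interferon, at 0.0353 against 2.94 RPKM (log2FC 6.36 ± 0.20). The inhibitory FCGR2B was at 11.6 and 12.2 in Molm13 and 0.177 and 0.148 RPKM in THP1 (log2FC -6.19 ± 0.10), present in Molm13 and nearly absent in THP1. FCGR2B and its neighbor FCGR2C share sequence in part, so the split between them is uncertain.

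Of 26 tested integrin and adhesion genes, 10 were higher in THP1, the pseudoautosomal CD99 included, and 6 in Molm13 (38.5% and 23.1%, background 20.6% and 18.1%). The tetraspanin CD82 (2.43 against 14.7 RPKM, log2FC 2.60 ± 0.07) and the integrin chain ITGAX (CD11c; 0.659 against 2.23 RPKM, log2FC 1.75 ± 0.12) were higher in THP1. ITGA6 (1.43 against 0.202 RPKM, log2FC -2.81 ± 0.18) and JAML (0.942 against 0.0479 RPKM, log2FC -4.26 ± 0.24, not a DEG without Molm13 replicate 2 at -4.12) were higher in Molm13, and ITGAM (CD11b) at 5.33 against 4.098 RPKM was not a DEG (log2FC -0.38 ± 0.07). In the NADPH oxidase, which makes superoxide in phagocytes, the catalytic subunit CYBB was at 0.401 and 0.381 in Molm13 and 3.56 and 3.64 RPKM in THP1 (log2FC 3.20 ± 0.15). The partner CYBA was at 48.5 against 80.96 RPKM (log2FC 0.74 ± 0.03), so 3 of 6 tested subunits were higher in THP1 and 1, NCF1 with its shared sequence, in Molm13.

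Protein arginine methyltransferases (PRMTs) add methyl groups to arginine, and PRMT9 makes symmetric dimethylarginine. PRMT9 was at 4.07 and 3.67 in Molm13 and 3.09 and 3.19 RPKM in THP1 and was not a DEG (log2FC -0.30 ± 0.09), a low level in both lines whose groups did not overlap. PRMT6, which makes asymmetric dimethylarginine, was the family's DEG higher in THP1, at 6.35 and 6.495 in Molm13 and 29.9 and 29.7 RPKM in THP1 (log2FC 2.21 ± 0.06). PRMT7, which makes monomethylarginine, was the one higher in Molm13, at 5.52 and 4.87 in Molm13 and 3.42 and 3.27 RPKM in THP1 (log2FC -0.64 ± 0.06), and was no longer a DEG without Molm13 replicate 1 (-0.57). PRMT1 (36.9 against 36.7 RPKM, log2FC -0.01 ± 0.03), PRMT2 (3.84 against 4.43 RPKM, log2FC 0.20 ± 0.06), PRMT3 (7.72 against 6.57 RPKM, log2FC -0.23 ± 0.06), PRMT5 (44.3 against 41.9 RPKM, log2FC -0.08 ± 0.03) and CARM1 (18.3 against 22.2 RPKM, log2FC 0.28 ± 0.04) were not DEGs. The PRMT9 substrates SF3B2, a splicing factor, at 29.4 against 34.1 RPKM (log2FC 0.22 ± 0.03), and PABPC1, the poly(A)-binding protein, at 764 against 588 RPKM (log2FC -0.38 ± 0.02), were not DEGs either.

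MYC raises ribosome synthesis, and of 26 tested MYC targets 12 were higher in Molm13 and 1 in THP1, with a median of -0.58. These are 46.2% and 3.85%, against 18.1% and 20.6% of little-shared coding genes. MYC itself was at 161 and 162 in Molm13 and 84.1 and 81.97 RPKM in THP1. Fibrillarin (FBL), which methylates ribosomal RNA, was at 147 and 144 in Molm13 and 47.9 and 46.98 RPKM in THP1 (log2FC -1.62 ± 0.03), and its partner NOP56 at 68.9 against 26.2 RPKM (log2FC -1.39 ± 0.03). NPM1, described above, was the one higher in THP1, and the glycolytic enzyme LDHA stood alike at 128 against 131 RPKM (log2FC 0.04 ± 0.03).

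The ATF4 response raises amino acid supply, and 9 of its 17 tested genes were higher in Molm13 (52.9%) and 2 in THP1 (11.8%). Of little-shared coding genes, 18.1% and 20.6% were. Among those with little shared sequence, SHMT2 was at 81.5 against 31.9 RPKM (log2FC -1.35 ± 0.03) and PSAT1 at 101 and 101 in Molm13 and 46.7 and 46.8 RPKM in THP1 (log2FC -1.11 ± 0.03), enzymes of serine and glycine metabolism. VLDLR (10.5 against 26.6 RPKM, log2FC 1.35 ± 0.03) and the cystine transporter SLC7A11 (4.21 against 7.53 RPKM, log2FC 0.84 ± 0.05) were higher in THP1. The list's DDIT4 (log2FC -4.06 ± 0.04) and ASNS (log2FC -2.04 ± 0.06) share sequence with other genes.

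Glycolysis and hypoxia genes gave 4 of 27 higher in THP1 and 8 in Molm13 (14.8% and 29.6%, background 20.6% and 18.1%). Of the 21 little-shared members, 3 were higher in THP1 and 4 in Molm13, with a median of -0.06. The glucose transporter SLC2A1 was at 8.08 and 8.596 in Molm13 and 39.7 and 37.7 RPKM in THP1 (log2FC 2.21 ± 0.04) and HK1 at 1.27 against 5.96 RPKM (log2FC 2.22 ± 0.09). The hypoxia-responsive ADM was at 6.04 against 0.0422 RPKM (log2FC -7.11 ± 0.25) and VEGFA at 10.4 and 10.2 in Molm13 and 1.57 and 1.502 RPKM in THP1 (log2FC -2.74 ± 0.05), both higher in Molm13. The enzymes ENO1 (451 against 492 RPKM), PGK1 (115 against 125 RPKM), TPI1 (90.7 against 97.5 RPKM) and PKM (93.9 against 90.004 RPKM) stood alike. Genes of DNA replication and mitosis were mostly alike, with 3 of 25 higher in THP1 and 2 in Molm13 (12% and 8%, background 20.6% and 18.1%). Their median was 0.13, or -0.0207 under an offset by exon length. The proliferation marker MKI67 was at 85.6 against 95.2 RPKM (log2FC 0.15 ± 0.03) and TOP2A at 130.3 against 156 RPKM (log2FC 0.26 ± 0.03), while the replication clamp PCNA was at 187 and 187 in Molm13 and 78.2 and 75.3 RPKM in THP1 (log2FC -1.29 ± 0.03).

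Sterol synthesis gave 2 of 18 higher in THP1 and 2 in Molm13 (11.1% each, background 20.6% and 18.1%). The epoxidase SQLE was at 17.4 against 32.6 RPKM (log2FC 0.90 ± 0.04) and INSIG1, which holds back sterol synthesis, at 43.8 against 43.3 RPKM (log2FC -0.02 ± 0.03). Heat shock genes gave 4 of 16 higher in THP1 and 1 in Molm13 (25% and 6.25%, background 20.6% and 18.1%). The small chaperone HSPB1 was at 55.6 against 161 RPKM (log2FC 1.53 ± 0.03) and the regulator HSF1 at 12.3 against 28.3 RPKM (log2FC 1.20 ± 0.04). In a list of transcripts that follow library preparation, 5 of 17 were higher in THP1 and 1 in Molm13 (29.4% and 5.88%, background 20.6% and 18.1%). It included the linker histone HIST1H1C at 3.796 against 21.2 RPKM (log2FC 2.48 ± 0.15), which usually lacks a poly(A) tail, and the nuclear RNA MALAT1 at 162 against 149 RPKM (log2FC -0.12 ± 0.02). Mitochondrial genes held 6.69% and 6.64% of Molm13 counts and 8.15% and 7.94% of THP1 counts, and MT-ND4 was a DEG (log2FC 1.12 ± 0.02).

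Some genes were read in 1 line only, taken as at least 100 counts in both libraries of that line and at most 3 in both of the other. There were 281 such genes in THP1, of which 207 were little-shared coding genes, 11 pseudogenes and 16 pseudoautosomal. In Molm13 there were 713, of which 671 were pseudogenes and only 32 little-shared coding genes. A fold against a line with 0 counts is a lower bound, set against 3 counts per library, and where a line had 1 to 3 counts a library the ratio is given with its 95% counting interval (exact binomial), which covers counting error only.

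TBX18, a developmental transcription factor, had 0 and 0 counts in Molm13 and 2894 and 3105 counts in THP1, at least 753-fold higher in THP1. PROSER1, a proline- and serine-rich protein, had 0 and 0 counts in Molm13 and 2474 and 2600 counts in THP1 (at least 637-fold higher), MAGEB2, a cancer-testis antigen, 0 and 0 counts in Molm13 and 1241 and 1319 counts in THP1 (at least 321-fold higher), and TIMP3, an inhibitor of metalloproteinases, 0 and 0 counts in Molm13 and 1029 and 1000 counts in THP1. The matrix protein TGFBI had 2 and 1 counts in Molm13 and 6520 and 6927 counts in THP1, the plasminogen activator inhibitor SERPINB2 1 and 3 counts in Molm13 and 2818 and 3188 counts in THP1 and the germline gene GTSF1 3 and 0 counts in Molm13 and 2907 and 3044 counts in THP1. All 7 genes had 3 counts or fewer in each Molm13 library.

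Of the genes read in Molm13 only, BEX1, a neural adaptor, had 3341 and 3077 counts in Molm13 and 1 and 2 counts in THP1 (2841-fold higher, 95% counting interval 972 to 13781). Emerin (EMD), a protein of the inner nuclear membrane, had 895 and 844 counts in Molm13 and 0 and 0 counts in THP1 (at least 384-fold higher). The homeobox gene DLX5 had 785 and 731 counts in Molm13 and 0 and 0 counts in THP1 (at least 335-fold higher), the ubiquitin ligase adaptor KLHL9 766 and 671 counts in Molm13 and 0 and 0 counts in THP1 (at least 317-fold higher), and MT1G, a metallothionein, 215 and 199 counts in Molm13 and 0 and 0 counts in THP1 (at least 91.5-fold higher). DYSF, a protein of membrane repair, had 1637 and 1771 counts in Molm13 and 0 and 2 counts in THP1 (2263-fold higher, 95% counting interval 626 to 18695), and ZFP57, which protects imprints, 396 and 415 counts in Molm13 and 0 and 0 counts in THP1. NACA2, an intronless copy of NACA, had 3373 and 3294 counts in Molm13 and 0 and 0 counts in THP1, but like many pseudogenes it was at 0 in THP1, and 24.3% of its words occur in another gene.

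Several genes read in 1 line lay next to each other. On the short arm of chromosome 9, KLHL9 (0 counts in both THP1 libraries) and MTAP were higher in Molm13, whereas FOCAD (878 and 836 counts in Molm13 and 1915 and 2095 counts in THP1) and TUSC1 (113 and 143 counts in Molm13 and 667 and 672 counts in THP1), on either side, were higher in THP1, and CDKN2A and CDKN2B had 0 counts in all 4 libraries. On the X chromosome, FLNA, an actin crosslinker next to EMD, had 18785 and 18882 counts in Molm13 and 1243 and 1286 counts in THP1 (log2FC -4.31 ± 0.03), while the ribosomal gene RPL10 close by had 8843 and 8854 counts in Molm13 and 9539 and 9826 counts in THP1. FUNDC1, a receptor of mitophagy, had 145 and 133 counts in Molm13 and 0 and 0 counts in THP1, next to KDM6A. On chromosome 13, NHLRC3, beside PROSER1, had 1 and 1 counts in Molm13 and 633 and 662 counts in THP1, with UFM1 (2147 and 1997 counts in Molm13 and 1177 and 1320 counts in THP1) and COG6 (1006 and 946 counts in Molm13 and 287 and 340 counts in THP1) read in both lines. Neighboring HOXC10, HOXC6 and HOXC4 were read in Molm13 only, HOXC4 with 465 and 426 counts in Molm13 and 0 and 0 counts in THP1.

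The longest run of neighbors lay on the short arm of chromosome 1, where genes from PABPC4 to ST3GAL3 (chr1:39560816-43931165, hg38, 4.37 Mb) were higher in THP1. Of 37 expressed little-shared genes there, 36 were DEGs higher in THP1, none was higher in Molm13, and EBNA1BP2 was not a DEG (log2FC 0.33 ± 0.04). The median log2 fold change was 3.23, from 0.33 to 10.37. The ends of the stretch were set after the values were seen, so it is a description with no test. The 10 expressed genes before it had a median of 0.24 with 2 higher in THP1, and the 10 after it a median of 0.52 with 5 higher in THP1.

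The stretch held genes of unlike function. PPT1, a lysosomal thioesterase, was at 49.7 and 48.7 in Molm13 and 1010.1 and 1018 RPKM in THP1 (log2FC 4.37 ± 0.03). The transcription factor MYCL, a relative of MYC, was at 1.51 and 1.52 in Molm13 and 9.08 and 9.27 RPKM in THP1 (log2FC 2.60 ± 0.08). CDC20, which activates the anaphase-promoting complex, was at 46.1 and 50.2 in Molm13 and 365 and 361 RPKM in THP1 (log2FC 2.92 ± 0.03). The nuclear protease ZMPSTE24 (25.1 against 331 RPKM), the coactivator CITED4 (7.902 against 283 RPKM), the phosphatase PTPRF (0.0233 against 31.6 RPKM) and the glucose transporter SLC2A1, given above, were also inside. Together the 37 genes summed to 425 RPKM in Molm13 and 4198 RPKM in THP1. The RNA-binding YBX1, with 7451 and 7147 counts in Molm13 and 138868 and 140996 counts in THP1, and CAP1, with 9243 and 8731 counts in Molm13 and 195779 and 207840 counts in THP1, lie there too but share sequence with other genes.

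**Figure D4:**
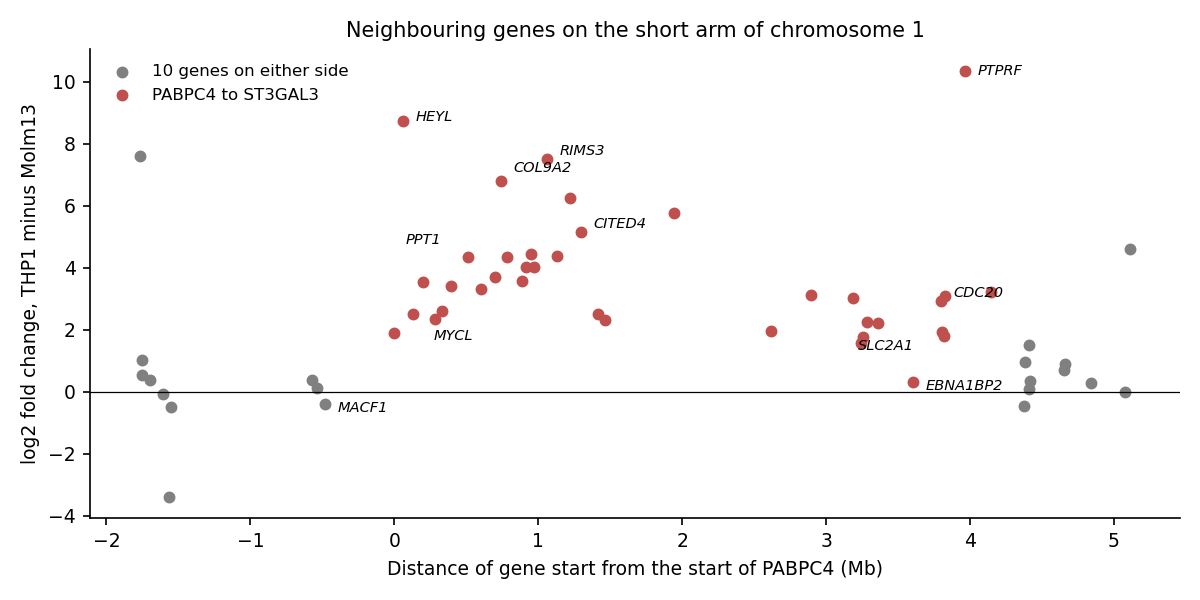
Log2 fold change (THP1 minus Molm13) of expressed little-shared genes by distance of the gene start from the start of PABPC4 in Mb, with genes inside the stretch in red and the 10 genes on either side in grey. Inside, 36 of 37 genes were DEGs higher in THP1 with a median of 3.23, and the 10 genes before and after had medians of 0.24 and 0.52.

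On the short arm of chromosome 19, 26 zinc finger genes from ZNF14 to ZNF254 were tested, of which 12 were higher in THP1, 6 were higher in Molm13 and 12 had at most 3 counts in both Molm13 libraries. ZNF14 had 0 and 2 counts in Molm13 and 297 and 329 counts in THP1. Zinc finger genes of this kind are repressors with related sequences. Across chromosomes, the median log2 fold change of little-shared coding genes ran from -0.62 on chromosome 13, -0.52 on chromosome 12 and -0.42 on chromosome 10 to 0.44 on chromosome 9 and 0.40 on chromosome 22, against 0.10 over all of them.

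The same contrast was made in the 4 shPRMT9 libraries, which the values above did not use but which come from the same lines and tables and carry the knockdown. PRMT9 had 41 and 56 counts there in Molm13 and 60 and 68 in THP1, against 332 and 289 and 317 and 352 counts in the control libraries, lower in each shPRMT9 library than in any control library. There 9140 of 18351 tested genes were DEGs (49.8%), and 5285 of 11533 little-shared coding genes (45.8%), 25.2% higher in THP1 and 20.6% in Molm13. Agreement was counted over the 11232 little-shared coding genes tested in both contrasts. Of their 4390 DEGs between the control lines, 3427 (78.1%) were DEGs in the same direction in the shPRMT9 libraries. Another 27 were DEGs in the opposite direction and 936 were not DEGs. The 3427 made up 65.1% of the 5268 DEGs of these genes in the shPRMT9 libraries. The stretch on chromosome 1 had a median of 3.55 with all 37 genes higher in THP1, FLT3 was at -3.09, MEIS1 at -7.97 and IFI27 at 6.51 on the log2 scale.

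A test of the difference between both contrasts across all 8 libraries called 9.71% of 19288 genes towards THP1 and 11.1% towards Molm13 in the shPRMT9 libraries, and 12.2% and 13.7% of 11731 little-shared coding genes. Of 40 ISGs tested in the shPRMT9 libraries, 36 were higher in THP1 and 0 in Molm13 (median 1.62). Between the contrasts, 17 ISGs differed towards THP1 and 8 towards Molm13. Of 26 genes induced on DNA damage 17 were higher in Molm13 and 2 in THP1 there (median -1.71), and 5 differed towards THP1 and 5 towards Molm13. Genes of DNA replication and mitosis had a median of 0.89, with 20 of 25 higher in THP1, and 17 of them differed between the contrasts towards THP1 and 0 towards Molm13. Sterol synthesis went the other way, with 9 of 18 higher in Molm13, and 10 differed towards Molm13 and 0 towards THP1. MYC targets had 7 genes higher in THP1 and 4 in Molm13 there (median -0.0487), against 1 and 12 in the control libraries, and 8 differed towards THP1 and 0 towards Molm13. Few replication and sterol genes were DEGs between the control lines, and more were between the knockdown lines, at a shift of the median over all genes of 0.03.

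**Figure D5:**
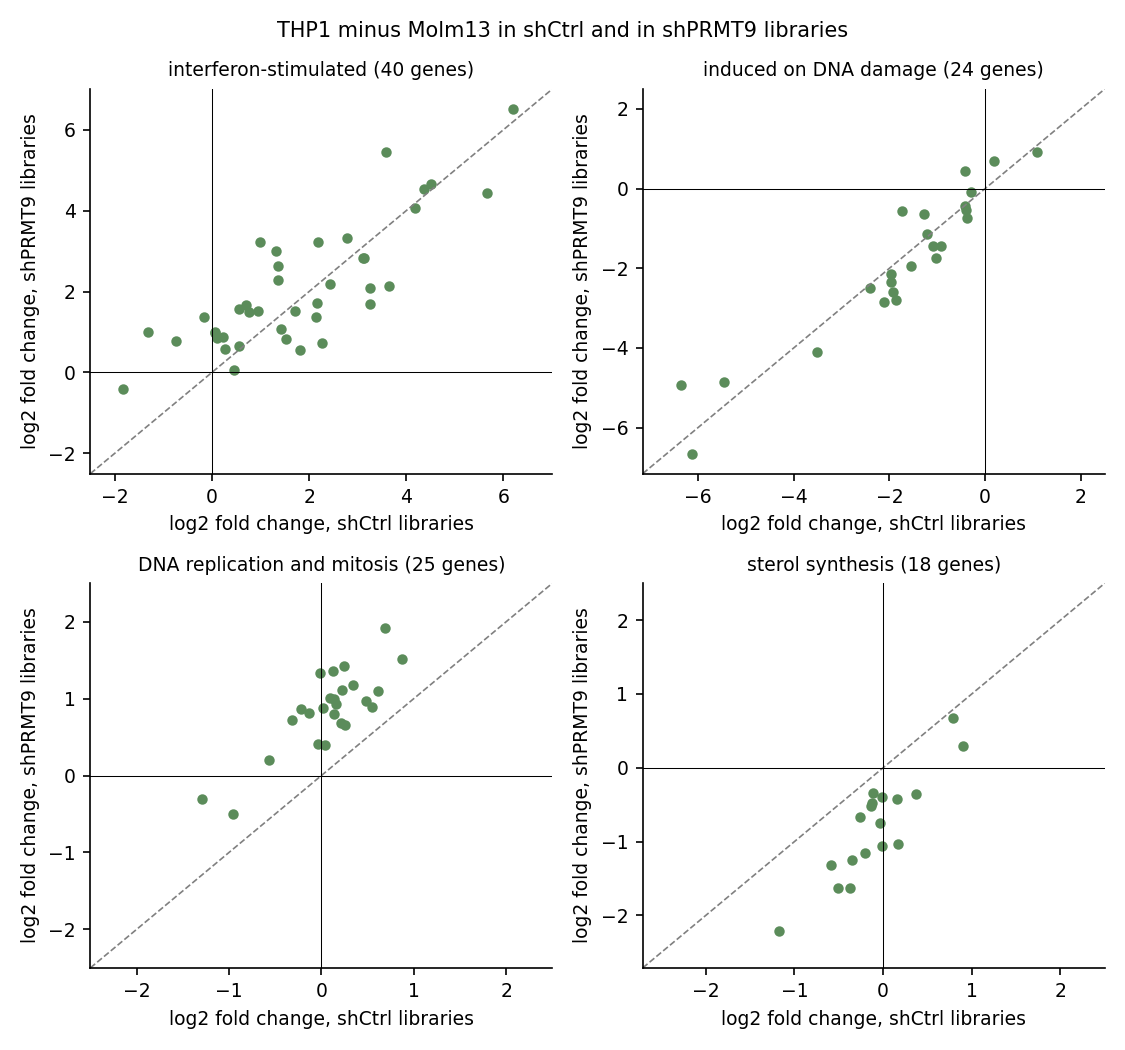
Log2 fold change (THP1 minus Molm13) in the shCtrl libraries (horizontal) against the shPRMT9 libraries (vertical) for 4 gene lists, 1 point per gene, with the dashed line where both are equal. Replication genes lie above the line (medians 0.13 and 0.89), sterol genes below it, and ISGs and genes induced on DNA damage keep medians of the same sign (1.48 and 1.62, and -1.41 and -1.71).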

How the data were processed

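Poly(A) RNA of the 4 control libraries was compared, and the 4 shPRMT9 libraries gave the same contrast alongside. The submitters' processing notes name TopHat2 2.0.8, HTSeq 0.11.2, edgeR 3.30.3 and the build hg38, and RNA was made into libraries with a Kapa mRNA HyperPrep kit for Illumina sequencing. The authors deposited whole-number counts of reads per gene without normalization, in 1 table per line. The annotation, the strand setting and the handling of reads with several matches are not given in the sources used here, and pseudogenes and pseudoautosomal genes had unlike counts in the 2 tables.

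From the counts, the 57992 Molm13 and 58174 THP1 rows were joined by gene identifier. R 4.3.3 with edgeR 4.0.16 (TMM, filterByExpr, quasi-likelihood test, Benjamini-Hochberg adjustment over all tested genes) was used, with DESeq2 1.42.0 as an alternative, and limma 3.58.1 was loaded with edgeR. RPKM came from exon lengths in the Molm13 table. A standard error was taken as the log2 fold change, without its sign, over the square root of F. On simulated counts 176 of 200 genes changed by 2-fold were recovered in the right direction, over 17510 genes, with 0 unchanged genes called. The simulation drew both lines from 1 mean profile. It held far fewer changed genes than these data and no shift in pseudogenes, so it gives no error rate for them. Sharing of sequence was counted as 32-base words found in another gene of the reference, gene types came from GENCODE release 29, and promoter windows from RefSeq.

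The libraries and the gene lists were chosen with earlier results of these data known, and the limit on shared sequence, the ends of the stretch on chromosome 1 and the zinc finger set after these values were seen. Named genes are the PRMTs, up to 3 DEGs per direction and list, the largest differences over all genes, genes read in 1 line only and markers of the lines' identity; other names were picked with their values in view. Results on some genes are not reported here. No per-sample column of the tables was left unmapped. Alternatives in normalization, filter, test, length, depth, fold limit and single libraries are given at the end.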

Additional observations from a re-analysis of the deposited data

Results flagged for a closer look

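A test over all 8 libraries asked whether the difference between the lines was the same in the shPRMT9 and the shCtrl libraries. Of 259 named genes tested, 89 differed, as did 9.71% of all tested genes towards THP1 and 11.1% towards Molm13, and 4 of them were DEGs in opposite directions in the 2 contrasts. For the linker histone HIST1H1C the log2 fold change was 2.48 in control and -0.62 in shPRMT9 libraries, a difference of -3.07 (edgeR, adjusted p = 2.5e-30). For LY6E it was -1.31 and 1.00, a difference of 2.33 (edgeR, adjusted p = 1.2e-51). For PSAT1, an enzyme of serine synthesis, it was -1.11 and 0.75, a difference of 1.89 (edgeR, adjusted p = 5.4e-50). For RSAD2 it was -0.75 and 0.77, a difference of 1.55 (edgeR, adjusted p = 1.5e-15). Each such difference compares shPRMT9 with shCtrl libraries within a table first, so it is also the difference between the responses of the lines to the hairpin. No group held enough libraries for a test of single outlying samples.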

How the results depend on the processing

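Limits of depth are small here, since the smallest library held 19741382 counts, but 2 libraries per line leave the spread poorly known and the line cannot be told apart from its table. DEG calls of named genes kept their direction under each alternative within the control libraries except NKG7 (0.13) and LY96 (1.52) under an offset by exon length over all genes. That offset also ended the calls of BIK (-0.36), S100A8 (-0.474), BCL2 (0.49), BCL2L1 (0.4964), MEN1 (0.44), TET3 (0.43) and NF1 (0.54), and upper quartile scaling that of IL7R (-0.58). It moved granule genes higher in THP1 from 5 to 8, cell cycle entry from 5 to 2, BCL2 family from 5 to 3, and nucleic acid sensors higher in Molm13 from 3 to 5. Median values of lists near 0 depended on the filter, that of nucleic acid sensing running from -0.0207 with at least 50 counts to 0.434 without a filter and that of monocyte genes from 0.815 to 0.368 with at least 50 counts. Numbers of DEGs under other normalizations, filters and tests stayed within 1.5 times the main ones. The median of all genes (-0.03) was -0.0227 with library size alone, 0.00559 with upper quartile scaling, 0.101 without a filter, -0.0185 with at least 50 counts, -0.0103 over genes with counts in both tables, -0.0473 when thinned and -0.0498 with the length offset; that of little-shared coding genes (0.10) was 0.0978 with DESeq2 size factors, 0.0976 with DESeq2, 0.108 in the fit of 8 libraries, 0.115 with library size alone, and 0.143, 0.197, 0.0667, 0.0924, 0.0874 and -0.0121 under the other settings in the same order. Refitting little-shared coding genes alone gave 4532 DEGs, 2228 higher in THP1 and 2304 in Molm13, with a median of 0.0394, so the share of DEGs higher in THP1 was 49.2% against 53.3% in the fit of all genes and 39.9% over all genes. A length offset over these genes gave 4537 DEGs, 2306 of them higher in Molm13, and a median of 0.0385. Without pseudogenes and pseudoautosomal genes 3011 genes were higher in Molm13, with medians of 0.0471 (all) and 0.0288 (little-shared). In the fit of little-shared genes alone, monocyte genes higher in THP1 went from 8 to 5, cytokine receptors from 7 to 3, class I genes from 5 to 3, and ATF4 genes higher in Molm13 from 9 to 5, with fewer genes tested. These 3 fits were added after seeing the data.

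Without a fold limit there were 12605 DEGs, 5492 higher in THP1, and 8342 little-shared DEGs (4328 and 4014); 509 list members passed instead of 311 (248 and 261). Above 2-fold 2084 genes were higher in THP1 and 2552 little-shared genes passed (1442 and 1110). Above 4-fold 3673 passed (1042 and 2631), of little-shared genes 1050 (685 and 365) and of list members 106 (58 and 48), so the share higher in THP1 was 28.4% of all and 65.2% of little-shared DEGs. Without an RPKM minimum 5095 genes were higher in THP1. Leaving out 1 library, with the lone sample assumed to vary like the other line, gave 7897 to 8129 DEGs, 3153 to 3236 higher in THP1 and 4744 to 4893 in Molm13, 4358 to 4405 little-shared DEGs (2260 to 2372 and 2017 to 2125), 304 to 310 list members (142 to 152 and 158 to 166) and medians from -0.0628 to 0.0112 (all) and 0.106 to 0.116 (little-shared). In the shPRMT9 libraries, RSAD2 (0.77), PSAT1 (0.75), PRMT2 (-1.19), LY6E (1.00), B2M (0.60), MYD88 (0.000116), PRMT3 (0.62) and HIST1H1C (-0.62) had the opposite sign. The labels do not say whether replicate numbers pair the lines. Deviations of same-numbered libraries correlated at -0.0005 over genes with 2 pairs, which are too few to exclude pairing. A fit with the replicate number as a block gave 3234 genes higher in THP1 and 4855 in Molm13 and changed no call of a named gene.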
